A study of Mus musculus with 17 samples.

Results

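The genes described here are 9 markers by which macrophages are commonly placed between alternative and classical activation, namely Nos2, Chil3, Retnla, Mrc1, Ccl24, Pparg, Il4ra, Mgl2 and Il10. They were picked by gene symbol from a list of names, without a threshold on their values, and each symbol matched 1 of the 24453 gene models in the expression table. PolyA RNA-seq was used to ask how loss of the AP-1 transcription factors ATF3, Jun and JunD, and stimulation of the receptor TLR4, changed expression in mouse macrophages, and 13 libraries had values. The 8 libraries of immortalized bone marrow-derived macrophages (iBMDMs) came from C57Bl/6EiJ cells that carried Myc, a mutant BRAF and Cas9 and had received vehicle, with 2 libraries each of a scramble control (Scramble, zsGreen in the titles), Atf3KO, JunKO and JunDKO. The knockouts were made with a lentivirus holding 2 guides per target and were sorted on a fluorescent protein of the virus, with no cloning step described, so each group was handled as a pool of edited cells. Thioglycollate-elicited macrophages (TGEMs), primary cells flushed from the peritoneum of 8-week male mice, received vehicle (Veh) or the TLR4 agonist Kdo2 lipid A (KLA) for 1 h. There was 1 Veh and 1 KLA library of C57Bl/6EiJ TGEMs, and 1 Veh with 2 KLA libraries of Balb/cJ TGEMs. The strain is given as the labels spell it, whereas the study's methods name C57Bl/6J. The number of mice behind each TGEM library is not given in the sources used here.

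IL-4 and IL-13 signal through receptors that contain the chain encoded by Il4ra and activate the transcription factor STAT6, which turns on much of the alternative program. Its usual readouts include the secreted proteins Ym1 (Chil3) and RELMα (Retnla), the chemokine CCL24, which attracts eosinophils, the mannose receptor (Mrc1), the galactose-type lectin Mgl2 and the lipid-sensing nuclear receptor PPARγ (Pparg). Inducible nitric oxide synthase (Nos2) stands for the classical side and makes nitric oxide from arginine. IL-10 (Il10) is a cytokine that restrains inflammatory macrophages.

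Depth was 1553296 to 18444352 reads per library, and 74.1% to 86.4% of reads lay in exons. The library labelled JunDKO replicate 1 was the shallowest and JunDKO replicate 2 the deepest. The Atf3KO libraries held 244 and 262 gene models with 1 to 3 reads, against 399 in JunDKO replicate 2, 492 in the C57Bl/6EiJ Veh TGEMs and 1543 to 2216 in the other 9 libraries, and Atf3KO replicate 2 carries a later date in its title (18-02-18) than the other iBMDM libraries (17-12-03). Transcripts of the targeted genes do not test a small edit. Atf3 lay at 154 to 169 RPKM in Atf3KO against 77.4 to 80.7 in Scramble, Jun at 20.5 to 26.2 in JunKO against 17.6 to 18.5, and Jund at 6.07 to 6.94 in JunDKO against 8.33 to 9.19. All 8 macrophage markers were detected in every library, from 2.18 RPKM for Fcgr1 in a Balb/cJ KLA library upward, with a summed level, carried mostly by Lyz2, of 16880 to 33015 RPKM in iBMDMs and 7803 to 10847 in TGEMs. TGEMs also held B cell markers (5 of 5 measured detected, sums of 11.2 to 25.2), mast cell markers (5 of 5, 1.78 to 13.7) and mesothelial cell markers (5 of 5, 5.16 to 10.1), which summed to at most 0.488 RPKM in any iBMDM library. Eosinophil markers summed to at most 4.24 RPKM in TGEMs, with 3 of 7 at 0. All libraries are labelled male, although Xist lay at 19.2 to 28.1 RPKM in the TGEM libraries and at 0 to 0.029 in iBMDMs.

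Promoter sequences, running from 250 bases before to 50 after a gene start, were found in RefSeq (build GRCm38.p6) for 6 of the 9 genes. Retnla, Chil3 and Mrc1 are shown because Retnla was undetected in iBMDMs and present in TGEMs, Chil3 shared that order of levels, and Mrc1 changed in every knockout. Capitals mark matches to TTCNNNNGAA, the spacing preferred by STAT6, to TTCNNNGAA, the spacing of other STAT factors, and to AGGTCA, the core element of nuclear receptors such as PPARγ, read on both strands.
Retnla promoter, plus strand, chr16:48842359-48842658: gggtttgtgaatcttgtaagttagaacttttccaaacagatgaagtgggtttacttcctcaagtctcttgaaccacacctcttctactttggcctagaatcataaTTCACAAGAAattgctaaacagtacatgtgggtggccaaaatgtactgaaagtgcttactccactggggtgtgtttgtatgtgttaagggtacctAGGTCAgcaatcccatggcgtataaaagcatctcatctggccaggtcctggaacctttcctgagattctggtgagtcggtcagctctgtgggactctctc
Chil3 promoter, minus strand, chr3:106167515-106167814: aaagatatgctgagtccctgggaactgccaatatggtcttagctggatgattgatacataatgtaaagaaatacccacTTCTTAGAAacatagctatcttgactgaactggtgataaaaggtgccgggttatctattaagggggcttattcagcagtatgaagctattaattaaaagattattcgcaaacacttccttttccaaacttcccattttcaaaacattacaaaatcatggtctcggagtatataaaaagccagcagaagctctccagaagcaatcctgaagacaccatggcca
Mrc1 promoter, plus strand, chr2:14229164-14229463: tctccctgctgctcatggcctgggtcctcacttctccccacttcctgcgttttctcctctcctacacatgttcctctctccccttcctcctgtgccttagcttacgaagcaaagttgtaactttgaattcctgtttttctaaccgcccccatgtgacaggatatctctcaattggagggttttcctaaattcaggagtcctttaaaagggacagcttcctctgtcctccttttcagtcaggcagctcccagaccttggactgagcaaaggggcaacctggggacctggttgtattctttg

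The STAT6-spaced match in Retnla began at position -145 from the RefSeq start at 48842609, and 6.95% of 32851 promoters of the same length held such a match. The measured Retnla model starts upstream of that, at 48842552, inside the printed window. The STAT match in Chil3 began at position -172 (8.30% of promoters). AGGTCA began at position -50 in Retnla and at -28 and -9 in 2 of the 3 Pparg promoters (16.3% of promoters). The AP-1 element TGANTCA, found in 7.81% of promoters, and its cAMP-response variant TGACGTCA, found in 1.79%, had 0 matches in the 8 windows of Retnla, Chil3, Mrc1, Pparg, Il4ra and Mgl2. These are matches of letters in a short window and say nothing about binding elsewhere.

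**Figure D1:**
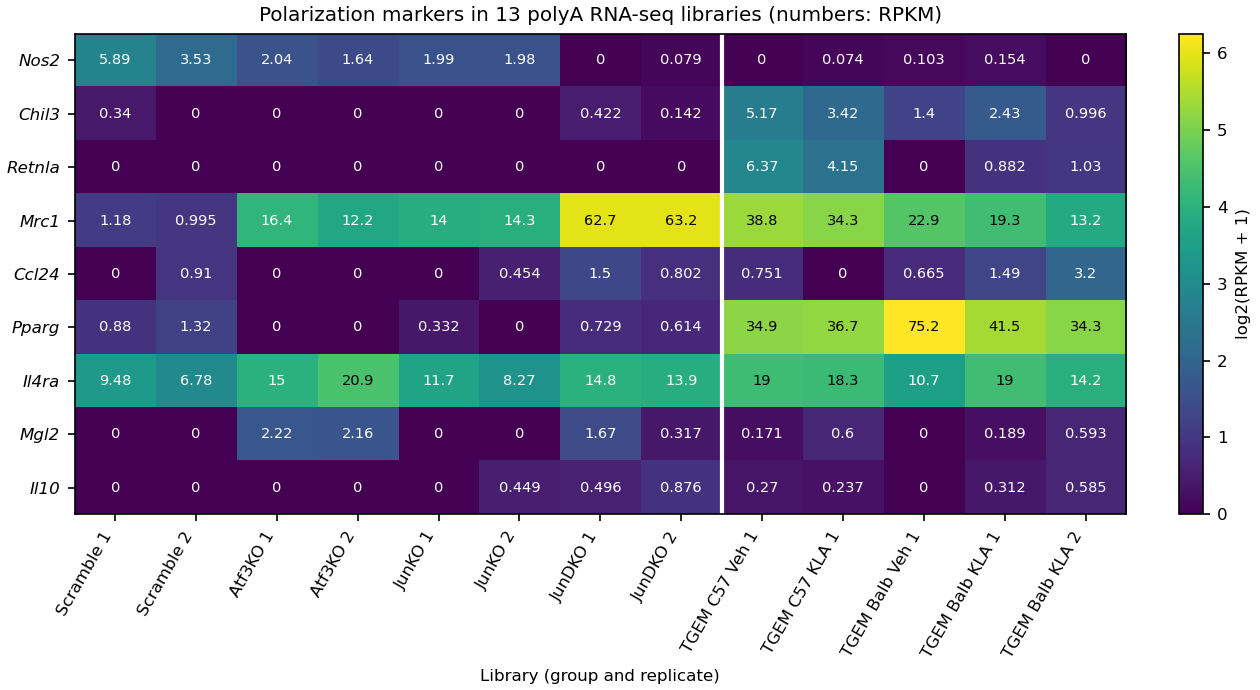
Heat map of the 9 polarization markers (rows) in 13 libraries (columns, iBMDMs left of the white line and TGEMs right of it), coloured by log2(RPKM + 1) with the RPKM value printed in each cell. Mrc1 runs from 0.995 RPKM in a Scramble library to 63.2 in a JunDKO library, and Retnla is at 0 in the 8 iBMDM libraries.

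Among the iBMDM libraries 3 of the 9 genes reached a mean of 1 RPKM and were tested, Nos2, Mrc1 and Il4ra. Mrc1 rose in the 3 knockouts, Nos2 fell in JunDKO, and Il4ra rose in Atf3KO. A gene was called at a limma-trend adjusted p under 0.05 together with a 2-fold change on the log2(RPKM + 1) scale, which understates changes of genes with low values. By that rule 2 of the 3 tested genes were called in Atf3KO, where 28.7% of 10691 tested models were called (14% higher and 14.7% lower), 1 of 3 in JunKO (0.281% of models) and 2 of 3 in JunDKO (8.77% of models, 4.81% higher and 3.97% lower). The 3 comparisons share the Scramble libraries. Nos2 passed the limit for testing through groups other than JunDKO, so its call was in part built into the JunDKO count. The median of all tested models was 0.23 in JunDKO on this scale and 0.05 and 0.01 in Atf3KO and JunKO, and it was -0.03 in JunDKO once library medians were made equal. That scaling moved the calls over all models in JunDKO from 514 higher and 424 lower to 274 and 606. In bulk RNA, fewer cells of a type and less RNA per cell cannot be told apart.

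Mrc1 encodes the mannose receptor, which takes up glycoproteins and microbial sugars (NM_008625, chromosome 2, 14229414 to 14332023, plus strand, 5286 exonic bases, build mm10). The Scramble libraries held 1.18 and 0.995 RPKM of Mrc1, the Atf3KO libraries 16.4 and 12.2, the JunKO libraries 13.98 and 14.3 and the JunDKO libraries 62.7 and 63.2. Scramble lay below every knockout library, JunDKO lay above all others, and the ranges of Atf3KO and JunKO overlapped. The level rose by a log2 fold change of 2.87 ± 0.20 (standard error, 2 libraries per group; limma-trend adjusted p = 1.41e-04) in Atf3KO, by 2.86 ± 0.20 (adjusted p = 0.00180) in JunKO and by 4.94 ± 0.20 (adjusted p = 8.77e-06) in JunDKO. These calls held in each alternative tried except, for Atf3KO and JunKO, a minimum of 16 RPKM in the mean of either group, which these groups do not reach. JunDKO exceeded JunKO by 2.08 ± 0.20 (limma-trend adjusted p = 7.38e-04) and Atf3KO by 2.07 ± 0.20 (adjusted p = 3.34e-04). The difference between Atf3KO and JunKO was 0.00 with a 95% interval of -0.46 to 0.47. After correction for GC content Atf3KO was 0.46 higher (limma-trend adjusted p = 0.0583, or 0.0483 with replicate number as a block), below 2-fold.

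Mgl2 encodes a C-type lectin that binds galactose-type sugars and marks alternatively activated macrophages and dendritic cells (NM_145137, chromosome 11, 70130357 to 70137542, plus strand). Its level was 0 in the Scramble and JunKO libraries, 2.22 and 2.16 RPKM in Atf3KO (39 reads together) and 1.67 and 0.317 in JunDKO (13 reads). With a mean of 0.796 RPKM over the iBMDM libraries it stayed under the limit for testing. Counted against the floor of 3 reads over the 2 Scramble libraries, the Atf3KO level was at least 4.08-fold higher, a bound that covers counting error only. In JunDKO the deeper library lay below that floor of 0.536 RPKM, so no bound is given. Its close paralog Clec10a, whose reads the counting could in part share with Mgl2, measured 1.74 and 2.75 RPKM in Scramble. The Atf3KO libraries held 14.2 and 10.7 RPKM of Clec10a, the JunKO libraries 8.68 and 4.71 and the JunDKO libraries 7.80 and 9.34. Clec10a rose by 2.06 ± 0.31 (limma-trend adjusted p = 0.00233) in Atf3KO and by 1.57 ± 0.31 (adjusted p = 0.0149) in JunDKO. Mrc2, the paralog of Mrc1, had 0 reads in the 8 iBMDM libraries.

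**Figure D2:**
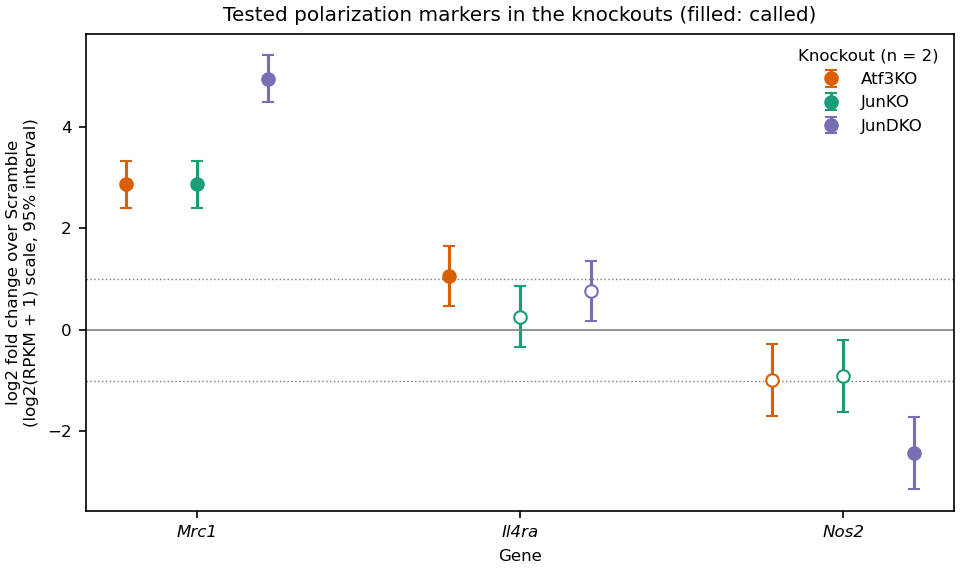
Log2 fold change over Scramble of the 3 tested polarization markers in Atf3KO, JunKO and JunDKO iBMDMs (points, n = 2 libraries per group), with 95% intervals from limma-trend and dotted lines at 2-fold. Filled points were called; Mrc1 is at 2.87, 2.86 and 4.94, and Nos2 is at -0.98, -0.91 and -2.43.

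Nos2 (NM_010927, chromosome 11, 78920787 to 78960226, plus strand, 4135 exonic bases) lay at 5.89 and 3.53 RPKM in the Scramble libraries. The Atf3KO libraries gave 2.04 and 1.64 RPKM, the JunKO libraries 1.99 and 1.98 and the JunDKO libraries 0 and 0.079. Each knockout library lay below both Scramble libraries, and JunDKO lay lowest, with 6 reads over its 2 libraries against 72 in Scramble. Nos2 fell by 2.43 ± 0.31 in JunDKO (SE, n = 2; limma-trend adjusted p = 0.00208). It passed the limit for testing through the Scramble, Atf3KO and JunKO libraries, so a difference from JunDKO was built into its being tested. In Atf3KO the log2 fold change was -0.98 ± 0.31 (limma-trend adjusted p = 0.0349), just inside the 2-fold limit and so not called, but 5 of 19 alternatives called it, for example at -1.09 once library medians were equal and at -1.31 after correction for GC content. In JunKO it was -0.91 ± 0.31 (adjusted p = 0.464). JunDKO also lay below JunKO by 1.52 ± 0.31 (limma-trend adjusted p = 0.0216) and below Atf3KO by 1.45 ± 0.31 (adjusted p = 0.00784). The difference from JunKO lost its call without any 1 of the 4 libraries of these groups, with adjusted p of 0.0891 to 0.122.

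Il4ra (NM_001008700, chromosome 7, 125552282 to 125579474, plus strand, 5081 exonic bases) encodes the receptor chain shared by IL-4 and IL-13 signalling and was detected in every library. Scramble libraries gave 9.48 and 6.78 RPKM of Il4ra, Atf3KO libraries 15.0 and 20.9, JunKO libraries 11.7 and 8.27, and JunDKO libraries 14.8 and 13.9. Atf3KO and JunDKO libraries lay above both Scramble libraries, while JunKO overlapped Scramble. Il4ra rose by 1.05 ± 0.26 in Atf3KO (SE, n = 2; limma-trend adjusted p = 0.0140), but the call was lost in 7 of 20 alternatives. The value was below 2-fold at pseudocount 5 (0.80), with equal library medians (0.94), with quantile normalization (0.90) and after correction for GC content (0.59). Across all models the Atf3KO changes rose with GC content (Spearman's rho = 0.50 over 10618 models, which are not independent replicates). The call was also lost without Atf3KO replicate 2 (adjusted p = 0.0762) or Scramble replicate 2 (adjusted p = 0.102). In JunDKO the log2 fold change was 0.77 ± 0.26 (limma-trend adjusted p = 0.0989), and in JunKO 0.26 ± 0.26 (adjusted p = 0.901).

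Of the remaining genes, Pparg, Chil3, Ccl24 and Il10 were close to the limit of detection in iBMDMs and Retnla had 0 reads there. Pparg (NM_001308354, chromosome 6, 115362349 to 115490401, plus strand) had 0 reads in both Atf3KO libraries, with 0.880 and 1.32 RPKM in Scramble, 0.332 and 0 for JunKO, and 0.729 and 0.614 for JunDKO. Scramble was at least 7.54-fold above the Atf3KO floor of 3 reads, on 7 Scramble reads. The Atf3KO libraries are those with the fewest models at 1 to 3 reads (244 and 262), and the part of that in their 0 reads was not tested. Ccl24 (NM_019577, chromosome 5, 135569937 to 135573043, minus strand) reached 1.50 and 0.802 RPKM in JunDKO, where Scramble gave 0 and 0.910, JunKO 0 and 0.454 and Atf3KO 0, so that JunDKO and Scramble overlapped. Il10 (NM_010548, chromosome 1, 131019845 to 131024970, plus strand) was at 0.496 and 0.876 RPKM in JunDKO and at 0 and 0.449 in JunKO, with 0 reads in the Scramble and Atf3KO libraries. Its JunDKO mean of 0.686 RPKM was at least 3.46-fold above the Atf3KO floor, and 1 of its 2 libraries lay below the Scramble floor of 0.634 RPKM. Without a filter on low values the difference from Atf3KO was 0.74 (limma-trend adjusted p = 0.0320), below 2-fold. Chil3 (NM_009892, chromosome 3, 106147554 to 106167564, minus strand) had 6 reads over the 8 iBMDM libraries, with levels of 0 to 0.422 RPKM, and its paralog Chil4 had 0 reads in the 13 libraries.

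Compared with each other, 2 of the 3 tested genes, Mrc1 and Nos2, differed between JunDKO and JunKO (6.31% of models), and the same 2 of 3 between JunDKO and Atf3KO (28.6%). For Nos2 a difference from JunDKO was built into its being tested, as given above. Between Atf3KO and JunKO 0 of 3 were called by limma-trend (24.1% of models, with 5146 models at an unadjusted p under 0.05). Il4ra was 0.79 ± 0.26 higher in Atf3KO than in JunKO (limma-trend adjusted p = 0.0448), below the 2-fold limit, and was 1.02 and called without Atf3KO replicate 1 (adjusted p = 0.0357). Nos2 differed between these groups by -0.08 with a 95% interval of -0.79 to 0.64. In the 6 lists of related genes described next, 2 of 62 tested genes were higher and 7 lower in JunDKO than in JunKO, 10 and 9 in JunDKO than in Atf3KO, and 3 and 11 in Atf3KO than in JunKO. Of the neutrophil markers 7 of 9 were at 0 in the iBMDMs, and S100a8, which other myeloid cells can also make, was called lower in JunDKO than in Scramble (-5.13), JunKO (-4.61) and Atf3KO (-4.95), and its part in the Nos2 differences was not tested. The eosinophil marker Ccr3 was called lower in Atf3KO than in Scramble (-1.55) and JunKO (-2.38) and higher in JunDKO than in Atf3KO (2.65). Of the 8 macrophage markers 6 were called in none of the 6 comparisons among the iBMDMs. Mertk, a receptor for apoptotic cells, was called higher than Scramble in Atf3KO (1.68) and JunDKO (2.12), and higher than JunKO in JunDKO (1.46) and Atf3KO (1.02), while the integrin Itgam was called lower in JunDKO than in JunKO (-1.27) and Atf3KO (-1.08). The part of these genes in the marker differences was not tested.

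The genes around these markers were read from 6 lists. Of the tested genes of the 6 lists, 9 of 62 rose and 11 fell in Atf3KO, 7 rose and 8 fell in JunDKO, and 0 of 62 were called in JunKO by limma-trend, where 842 of 10691 models had an unadjusted p under 0.05. The called share was 32.3% of the list genes against 28.7% of all models in Atf3KO, and 24.2% against 8.77% in JunDKO. Among other alternative-activation markers 6 of 9 tested genes were called in Atf3KO, 3 in each direction, with a list median of -0.22 against 0.05 over all models. Clec10a and Folr2, a folate receptor of tissue macrophages, rose by 2.06 and 1.67, while Il1rn, the IL-1 receptor antagonist, fell by 2.99 and Clec7a, the β-glucan receptor dectin-1, fell by 1.76. In JunDKO 4 of the 9 were called, Folr2 (2.66) and Clec10a (1.57) higher and Il1rn (-2.55) and the transglutaminase Tgm2 (-1.01) lower. Folr2 levels were 0.484 and 0.546 RPKM for Scramble, 4.68 and 3.10 for Atf3KO, 5.48 and 2.73 for JunKO, and 14.4 and 4.97 for JunDKO, so that every knockout library lay above Scramble, as for Mrc1.

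In the IL-4 receptor signalling list, Rxra, which encodes the dimer partner of PPARγ, rose by 1.47 ± 0.30 in Atf3KO and by 1.50 ± 0.30 in JunDKO (limma-trend adjusted p = 0.00721 and 0.0164). Il13ra1, the second chain of the IL-13 receptor, fell by 1.16 in Atf3KO, Rxrb rose by 1.02 in JunDKO, and 10 of the 12 tested genes were not called in each of these knockouts. PPARγ target genes had 1 of 9 called in Atf3KO, where the fatty acid transporter Cd36 fell by 3.57 ± 0.24 (limma-trend adjusted p = 1.10e-04), and 2 of 9 in JunDKO, where the cholesterol transporter Abcg1 fell by 2.24 and the fatty acid binding protein Fabp4 fell by 1.75. For arginine and nitric oxide metabolism 1 of 11 was called in each of these knockouts. Spr, which makes the Nos2 cofactor tetrahydrobiopterin, rose by 1.77 in Atf3KO, and Ass1, which recycles citrulline to arginine, fell by 2.84 in JunDKO.

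Among 11 tested classical-activation genes, 2 rose and 4 fell in Atf3KO. The costimulatory ligand Cd80 fell by 2.75, the prostaglandin synthase Ptgs2 by 2.74 and the cytokine Tnf by 2.03, while the interferon-induced Gbp5 rose by 2.10. In JunDKO 1 rose and 3 fell, with the formyl peptide receptor Fpr2 at -4.57, Ptgs2 at -1.85, Cd80 at -1.60 and the costimulatory ligand Cd86 at 1.31. The list medians were -0.48 in Atf3KO and -0.81 in JunDKO, against 0.05 and 0.23 over all models. In the IL-10 axis 4 of 10 genes were called in Atf3KO. Maf, a transcription factor that drives Il10, rose by 1.63 and the NF-κB regulator Bcl3 rose by 1.47, whereas the phosphatase Dusp1 fell by 2.49 and the repressor Nfil3 fell by 1.81. Maf rose in JunDKO too, by 1.39 ± 0.24 (limma-trend adjusted p = 0.00770), and so did the repressor Etv3, by 1.14.

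**Figure D3:**
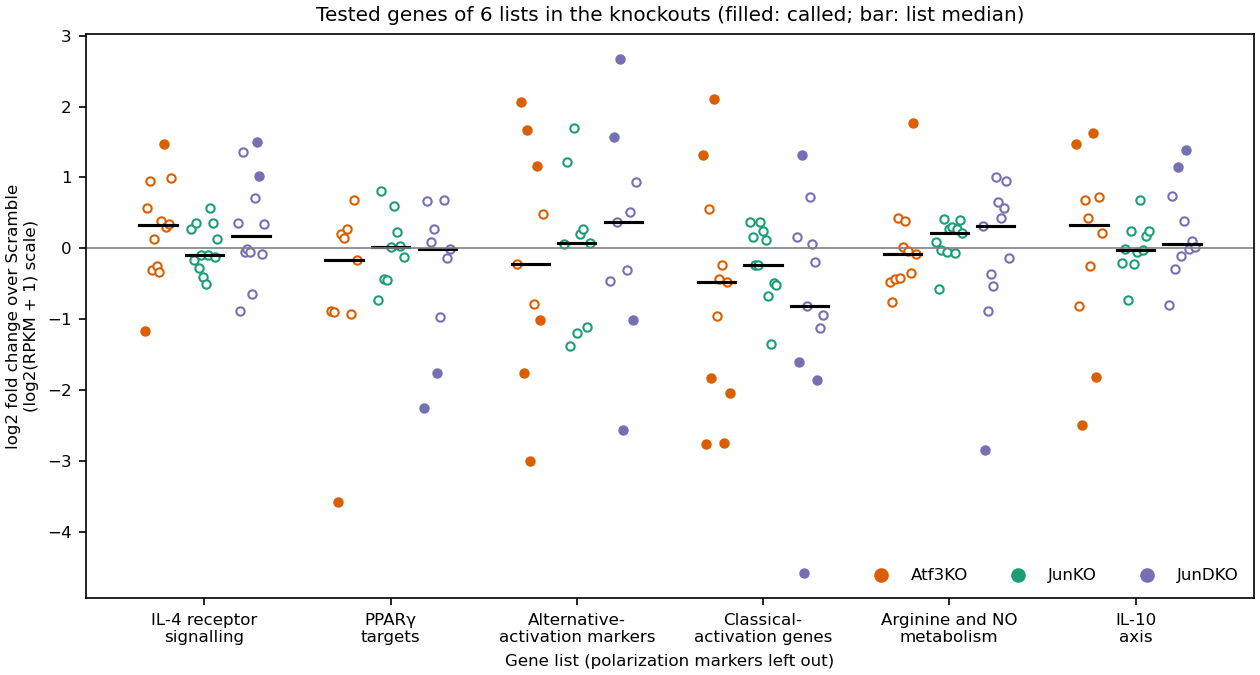
Log2 fold changes over Scramble of the tested genes in 6 gene lists that leave out the polarization markers, for Atf3KO, JunKO and JunDKO iBMDMs (1 point per gene, filled where called, bar at the list median). Called genes stand on both sides of 0 among alternative-activation markers in Atf3KO (3 higher and 3 lower), and no point is filled for JunKO.

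Pparg, Mrc1 and Chil3 were higher and Nos2 was lower in C57Bl/6EiJ Veh TGEMs than in Scramble iBMDMs. The fit covered the 13 libraries with additive terms for KLA and strain, so KLA and Balb/cJ libraries also shaped the values. Without Balb/cJ Veh, which leaves C57Bl/6EiJ Veh to set them, they were 4.10 for Pparg, 4.26 for Mrc1, 2.41 for Chil3 and -2.48 for Nos2. In this comparison 4 of 5 tested markers were called, against 37.6% of 10929 models (13.5% higher and 24.2% lower, or 1937 higher and 1975 lower models with equal library medians), and cell source, immortalization, culture and library date cannot be told apart. Pparg lay at 34.3 to 75.2 RPKM in the 5 TGEM libraries and at 0 to 1.32 in the iBMDMs, with no overlap, and its log2 fold change was 4.40 ± 0.32 (limma-trend adjusted p = 3.43e-06). Mrc1 lay at 13.2 to 38.8 RPKM in TGEMs, a range that holds both JunKO libraries and 1 of the 2 Atf3KO libraries and ends below JunDKO. C57Bl/6EiJ TGEMs exceeded Scramble in Mrc1 by 4.35 ± 0.25 (limma-trend adjusted p = 8.45e-07). Chil3 was at 0.996 to 5.17 RPKM in TGEMs (186 reads) and was 2.24 ± 0.38 higher (adjusted p = 8.19e-04). Nos2 had 13 reads over the 5 TGEM libraries and levels of 0 to 0.154 RPKM, 2.44 ± 0.32 below Scramble (adjusted p = 1.64e-04). Pparg and Chil3 passed the limit for testing through the TGEM libraries and Nos2 through the iBMDM libraries, so a difference was built into their being tested. Il4ra spanned 10.7 to 19.0 RPKM in TGEMs, with a log2 fold change of 0.97 ± 0.30 (limma-trend adjusted p = 0.0238), below 2-fold. It was called in 8 of 16 alternatives. The value ranged from 0.47 after correction for GC content (limma-trend adjusted p = 0.122) to 1.24 with quantile normalization (adjusted p = 0.00396). Without Balb/cJ Veh, which leaves C57Bl/6EiJ Veh alone to set the value, Il4ra was at 1.15, above 2-fold. Without C57Bl/6EiJ Veh the fit had no library of that group and extrapolated to 0.52.

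Retnla (NM_020509, chromosome 16, 48842552 to 48844461, plus strand, 592 exonic bases), whose promoter with the STAT6-spaced match is printed above, was the gene with 0 reads in the 8 iBMDM libraries. Its mean over the 5 TGEM libraries, 2.49 RPKM from 64 reads, was at least 19.0-fold above the floor of 3 reads over those 8 libraries. C57Bl/6EiJ Veh gave 43 of these reads, at 0.148 RPKM per read, and the shallower Balb/cJ Veh 0, at 0.721 RPKM per read. Without C57Bl/6EiJ Veh the mean was 1.52 RPKM and the bound 11.6-fold. Its paralogs Retnlg and Retnlb had 0 reads in the 13 libraries. Mgl2 (0 to 0.600 RPKM) and Il10 (0 to 0.585 RPKM) had 17 reads each over the TGEM libraries, and Ccl24 lay at 0 to 3.20 RPKM. Of the PPARγ target genes 6 of 9 were higher in TGEMs and 0 lower, led by Fabp4 (3.51), Cd36 (2.51), the lipid droplet protein Plin2 (2.28) and the nuclear receptor Nr1h3 (2.02), with a list median of 1.25 against -0.28 over all models. Of the arginine and nitric oxide list 5 of 11 were lower and 0 higher, led by Odc1 (-3.24), Ass1 (-3.10), Srm (-3.09) and Oat (-1.50), 3 of which act in the use of ornithine or in polyamine synthesis. In the IL-4 receptor signalling list 6 of 14 were higher and 1 lower (median 0.94), led by the adaptor Irs2 (2.39), the transcription factor Klf4 (2.11), Kdm6b (2.10) and Rxra (1.78). Other alternative-activation markers split into 4 higher and 3 lower of 11, led by fibronectin (Fn1, 6.49), Clec7a (3.67), Folr2 (3.16) and the scavenger receptor Msr1 (-2.68), and classical-activation genes into 1 higher and 3 lower of 13, Fpr2 (-5.58), Il1a (3.55), Ptgs2 (-2.77) and Cd86 (-1.64). In the IL-10 axis Dusp1 (2.98) and Etv3 (1.24) were higher and Creb1 (-1.11) was lower, of 10 tested. B cell markers such as Cd79b (4.19 to 9.20 RPKM in TGEMs, 0 in iBMDMs) moved with this comparison, as did the mast cell marker Tpsb2 (2.13) and the resident macrophage marker Gata6 (2.62). The resident marker Prg4 was not called (0.53), and the neutrophil marker S100a8 (-2.21) and the eosinophil marker Ccr3 (-1.46) were called lower in the TGEMs. All 8 macrophage markers were called, 2 higher and 6 lower with a median of -1.72, and the part of these lists in the result was not tested.

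Between the strains, 0 of 6 tested markers were called by limma-trend, where 2.31% of 10357 models were called (0.859% higher and 1.45% lower in Balb/cJ, 89 and 150 models, or 96 and 101 with equal library medians) and 2213 had an unadjusted p under 0.05. Balb/cJ reads were aligned to a genome of that strain and their libraries have other dates, so strain, genome and date cannot be told apart. Retnla, Chil3 and Mrc1 were lower in every Balb/cJ library than in either C57Bl/6EiJ library, without a call. Retnla measured 6.37 and 4.15 RPKM in C57Bl/6EiJ Veh and KLA, 0 in Balb/cJ Veh and 0.882 and 1.03 in Balb/cJ KLA. In Balb/cJ Veh 1 Retnla read was 0.721 RPKM. Its strain difference was -2.03 ± 0.40 (limma-trend adjusted p = 0.0501), and 2 of 13 alternatives called it, the correction for GC content (-2.23, adjusted p = 0.0459) and the fit without C57Bl/6EiJ KLA (-2.88, adjusted p = 0.0292). It was -1.40 without Balb/cJ Veh (adjusted p = 0.203) or C57Bl/6EiJ Veh (adjusted p = 0.161), and limma-voom gave an adjusted p of 0.149. Retnla passed the limit for testing through the C57Bl/6EiJ libraries and Ccl24 through the Balb/cJ libraries, so a strain difference was built into their being tested. Chil3 measured 5.17 and 3.42 RPKM in C57Bl/6EiJ against 1.40, 2.43 and 0.996 in Balb/cJ, a difference of -1.02 ± 0.34 (adjusted p = 0.158). Mrc1 measured 38.8 and 34.3 RPKM against 22.9, 19.3 and 13.2, a difference of -0.92 ± 0.28 (adjusted p = 0.129). Across all models the strain changes fell with GC content (Spearman's rho = -0.45 over 10290 models, which are not independent replicates). After correction for GC content the difference was -1.22 for Mrc1, -1.26 for Chil3, 0.25 for Pparg and -0.20 for Il4ra, none of them called. Of the 10 tested genes of the alternative-activation list, 2 were called lower in Balb/cJ and 0 higher. These were Folr2 (-1.64 ± 0.27, adjusted p = 0.0313) and the scavenger receptor Stab1 (-1.48 ± 0.24, adjusted p = 0.0293). The list median was -0.11 against -0.08 over all models. Others of the list lay higher in Balb/cJ without a call, such as Ccl22 (1.66) and Il1rn (1.07). Pparg (0.49 ± 0.32), Il4ra (-0.42 ± 0.28) and Ccl24 (0.94 ± 0.50) were not called, with limma-trend adjusted p of 0.408, 0.419 and 0.321. With 1 library left out the strain value ran from 0.04 to 1.09 for Pparg and from -0.78 to -0.15 for Il4ra. In the arginine and nitric oxide list 1 of 11 tested genes was called, the arginine transporter Slc7a2. It measured 2.95 to 3.76 RPKM in C57Bl/6EiJ and 8.42 to 12.1 in Balb/cJ and rose by 1.40 ± 0.26 in Balb/cJ (limma-trend adjusted p = 0.0472). Of the 8 macrophage markers 1 was called, the colony-stimulating factor receptor Csf1r (-1.37 in Balb/cJ, limma-trend adjusted p = 0.0483), and the list median was -0.89 against -0.08 over all models, with Mertk at -1.44, Fcgr1 at -1.52, Adgre1 at -0.98, Itgam at -0.79, Cd68 at 0.44, Lyz2 at 0.20 and Cd14 at 0.08, not called. These names were chosen after their values were seen. The summed level of the 8 ran the other way, 7803 to 8329 RPKM in C57Bl/6EiJ and 8742 to 10847 in Balb/cJ. Sums were 11.7 to 14.5 and 11.2 to 25.2 RPKM for B cell markers and 6.43 to 6.73 and 1.78 to 13.7 for mast cell markers, and the part of these lists in the strain differences was not tested.

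**Figure D4:**
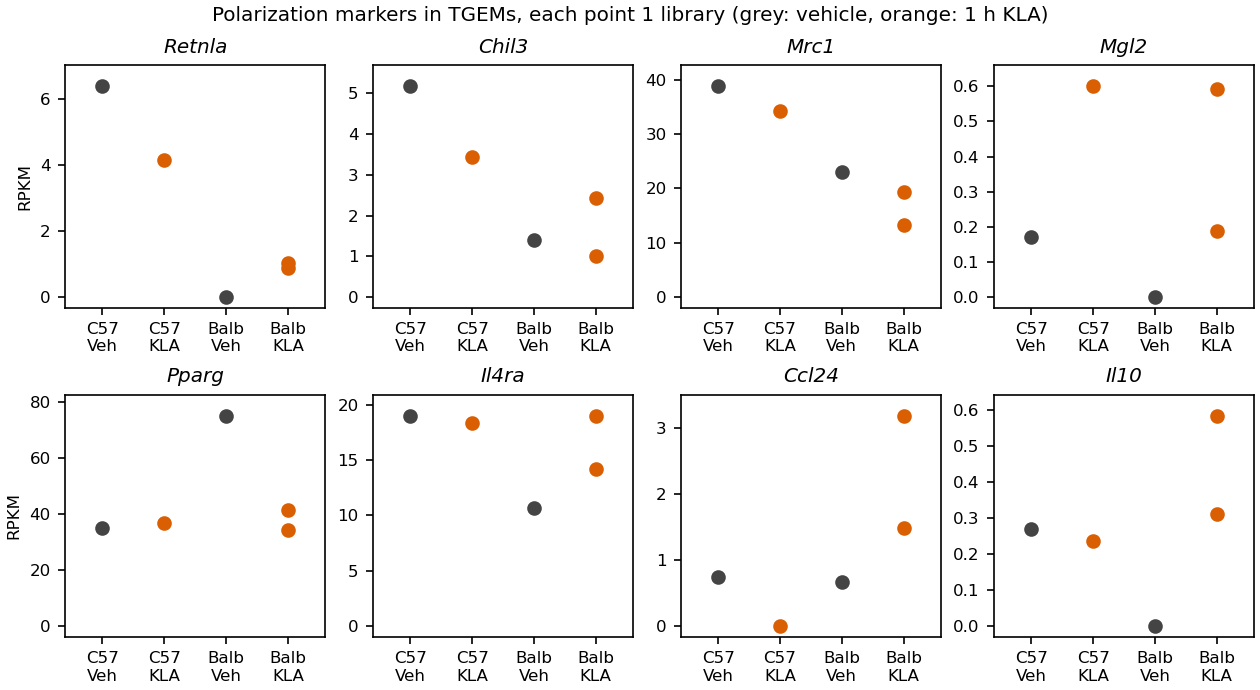
RPKM of 8 polarization markers in TGEMs by strain and treatment, each point 1 library (grey for vehicle, orange for 1 h of KLA; linear axes). C57Bl/6EiJ libraries hold 4.15 and 6.37 RPKM of Retnla and 34.3 and 38.8 of Mrc1, whereas Balb/cJ libraries hold at most 1.03 of Retnla and 13.2 to 22.9 of Mrc1.

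After 1 h of KLA, 0 of the 6 tested markers were called by limma-trend, where 1.53% of 10357 models were called (1.29% higher and 0.232% lower, 134 and 24 models, or 136 and 11 with equal library medians) and 1553 models had an unadjusted p under 0.05. The fitted KLA changes, adjusted for strain, were -0.53 ± 0.32 for Pparg (95% interval -1.27 to 0.22), -0.36 ± 0.28 for Mrc1 (-1.01 to 0.29), 0.31 ± 0.28 for Il4ra (-0.34 to 0.96), -0.13 ± 0.34 for Chil3 (-0.94 to 0.67), 0.33 ± 0.40 for Retnla (-0.60 to 1.26) and 0.20 ± 0.50 for Ccl24 (-0.97 to 1.37). The sign of the KLA value turned in at least 1 alternative for Pparg, Il4ra, Chil3, Retnla and Ccl24. The intervals leave room for changes of up to 2-fold or more in Pparg, Mrc1, Retnla and Ccl24. Those of Il4ra and Chil3 ended just inside 2-fold on this scale, and limma-voom gave -0.32 ± 0.61 for Chil3. Changes near 2-fold thus remain possible in these genes too. Classical-activation genes in the same libraries were called in 9 of 15 cases, all higher, led by Il1b (7.70 ± 0.52), Tnf (7.42 ± 0.29), Socs3 (5.59 ± 0.27) and Il1a (5.21 ± 0.38), with a list median of 3.74. The histone demethylase Kdm6b, from the IL-4 signalling list, rose by 2.74 ± 0.41 (limma-trend adjusted p = 0.0216), and Dusp1 and Bcl3 of the IL-10 axis rose by 5.08 and 1.42, while Il10 itself stayed at 0 to 0.585 RPKM.

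Whether the KLA change differed between the strains was tested as an interaction in 5 of the 9 genes, and 0 were called by limma-trend, against 12 of 10929 models (0.11%) with 1067 at an unadjusted p under 0.05. The largest of these 5 was that of Pparg at -1.05 ± 0.42 (limma-trend adjusted p = 0.456), from 34.9 RPKM in C57Bl/6EiJ Veh and 36.7 in C57Bl/6EiJ KLA against 75.2 in Balb/cJ Veh and 41.5 and 34.3 in Balb/cJ KLA. Without a filter on low values Retnla was called at 1.48, and Ccl24 was at 1.77, not called. The standard error of 0.08 for Retnla drew on iBMDM libraries that all held 0 reads. C57Bl/6EiJ Veh, C57Bl/6EiJ KLA and Balb/cJ Veh had 1 library each. Balb/cJ Veh held 0 Retnla reads, where 1 read was 0.721 RPKM, so this call cannot show a strain difference in the KLA change.

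Across the 13 libraries each gene with a mean of at least 1 RPKM was set beside 10651 other models by the root-mean-square difference of centred log2(RPKM + 1) profiles, as a description of likeness only. The nearest profiles to Mrc1 were Folr2 (0.757), Klhl6 (0.798) and Mertk (0.892), where Mrc1 itself deviates from its mean by 1.49. Pparg was nearest to Igfbp7 (0.358), Sparc (0.400) and Sel1l3 (0.417), against its own 2.44. Nos2 was nearest to Cgnl1 (0.240), Irak3 (0.271) and Calb2 (0.277), Chil3 to Rasgrp2 (0.193), Klf4 (0.217) and Gas1 (0.253), and Il4ra, whose own deviation was 0.445, to Tbc1d22a (0.142), Mpdu1 (0.173) and Rps6ka4 (0.178).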

How the data were processed

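PolyA RNA-seq of 13 libraries was analysed. The values are RPKM as deposited. Per the labels and the study's methods, the authors aligned reads with STAR to mm10 (Balb/cJ reads to a custom genome of their strain) and counted exons with HOMER, with versions and strand option not given in the sources used here. GRO-seq of 4 further samples was not analysed here. Because RPKM times exonic length moves in steps of 1 read, depth and whole reads were recovered (100% of values up to 50 reads lay within 0.05 of a whole number). log2(RPKM + 1) was fitted with limma-trend (limma 3.58.1, R 4.3.3) over the 8 iBMDM libraries with a coefficient per group (4 residual degrees of freedom). The 5 TGEM libraries were fitted with treatment and strain (2 residual degrees of freedom). TGEMs against Scramble used 13 libraries, with a coefficient per iBMDM group, 1 for TGEMs and additive terms for KLA and strain. The interaction used 13 libraries with a coefficient per group. Models whose mean reached 1 RPKM were kept. P values were two-sided and Benjamini-Hochberg adjusted over all tested models of a comparison, with calls at 0.05 and 2-fold. They measure the spread between these libraries. A group without reads was given a floor equal to 3 reads summed over its libraries. The genes, lists, tests and named genes (all 9 markers, the up to 4 largest calls of each list, the 3 nearest profiles) were chosen with earlier results of these data known. A further marker and some further list genes are not reported here. Marker lists were also summed for neutrophils (at most 41.1 RPKM in iBMDMs and 13.4 in TGEMs), T and NK cells (at most 1.94), dendritic cells (at most 2.67) and resident peritoneal macrophages (at most 2.12 in iBMDMs, 4.41 to 9.06 in TGEMs). The GC correction removed a spline with 5 degrees of freedom per library. Scripts were tested on simulated data. edgeR, named by the authors for their own tests, was not run. Tables used Python 3.11.15, numpy 2.4.6, pandas 2.3.3 and matplotlib 3.10.9.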

Additional observations from a re-analysis of the deposited data

How the results depend on the processing

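Of 662 values of single markers under alternatives, 601 kept their direction and call, 24 lost and 16 gained the call, and 21 changed sign, none of them called in either fit. For KLA, Ccl24 was -0.046 at pseudocount 0.25 and -0.114 with label date in place of strain, Chil3 was 0.018 with that date, and Retnla was -0.287 by limma-voom. With 1 library left out the KLA values ran from -0.808 to 0.957 for Ccl24, -0.480 to 0.126 for Chil3, -0.516 to 0.966 for Retnla, -0.976 to 0.071 for Pparg and -0.048 to 0.580 for Il4ra, and the strain value of Ccl24 from -0.073 to 1.69. Il4ra in JunDKO against Atf3KO was 0.120 with the GC correction, with or without the block. In Atf3KO against JunKO, Mrc1 was -0.090 with equal medians, -0.128 with quantile normalization and -0.027 by limma-voom, and Nos2 was 0.249 with quantile normalization, and with 1 library left out they ran from -0.196 to 0.201 and from -0.177 to 0.026. Counts of called markers moved by more than 1.5 times as follows. With no filter on low values Atf3KO had 4 (Pparg and Mgl2 added), Atf3KO against JunKO 1 (Mgl2) and the interaction 1 (Retnla). At pseudocount 5 Atf3KO, JunDKO, JunDKO against JunKO and JunDKO against Atf3KO had 1 each and TGEMs against Scramble 2. At 5 RPKM JunDKO, JunDKO against JunKO and JunDKO against Atf3KO had 1 each and TGEMs against Scramble 2. At a minimum of 16 RPKM in either group Atf3KO and these 3 comparisons of JunDKO had 1 each, JunKO 0 and TGEMs against Scramble 2. With 2 groups compared alone JunDKO against JunKO, JunDKO against Atf3KO and Atf3KO against JunKO had 1 each. Quantile normalization gave 1 in Atf3KO, and the GC correction 1 for strain (Retnla). With 1 library left out, called markers numbered 1 to 2 in Atf3KO, 1 in JunKO, 2 in JunDKO, 1 to 2 for JunDKO against JunKO, 2 for JunDKO against Atf3KO, 0 to 1 for Atf3KO against JunKO, 0 to 1 for strain, 3 to 6 for TGEMs against Scramble and 0 for KLA. The interaction stayed at 0 in the 2 fits possible. A lone library was assumed to vary like the other groups. Deviations of same-numbered iBMDM replicates correlated at 0.18 to 0.22 among Scramble, JunKO and JunDKO and at -0.21 to -0.12 in pairs with Atf3KO, so not every pair was positive and the numbers were not taken to pair samples. With the replicate block 14 models were called in JunKO against 30 without it. A fit without the Atf3KO libraries was chosen after seeing the data and changed no call. Depth limits Il10, Ccl24, Chil3 and Mgl2 in iBMDMs, and the cause of each change was not tested.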
